A study of Mus musculus with 8 samples.

Results

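H3K27ac maps of cells given EGF alone were set directly beside maps of cells given Arid1a siRNA alone. The comparison uses 4 of the 8 libraries of the series, 2 for each treatment, and 31535 regions obtained by merging the peaks of these 4 lists wherever they overlapped by at least 1 bp. All cells are 266-6, a mouse pancreatic acinar cell line, and all received an siRNA at 25 nM for 48 h, a night without serum and a final treatment of 8 h. The EGF group carries a non-targeting siRNA and was given EGF at 40 ng/ml. The knockdown group carries siRNA against Arid1a and was given the vehicle, 0.1% BSA. Controls carry the non-targeting siRNA with vehicle, and a combined group carries Arid1a siRNA with EGF; these groups, also of 2 libraries each, serve as reference. They had no part in merging the regions or in calling a region particular to a treatment, but the fit that gives the p-values uses all 8 libraries, and 1 set of 5 regions per treatment was picked by presence in the combined and control libraries. The labels do not say that duplicates are separate cultures, so the spread behind each p-value is that of these samples and may be technical. Knockdown here names the siRNA given: how far Arid1a fell was not analysed here, and a match of these siRNAs to the mouse sequence is not stated in the labels.

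Acetylation of lysine 27 on histone H3 marks active promoters and enhancers, and wide stretches of it are typical of strongly active regulatory domains. EGF binds the EGF receptor and signals through the RAS and ERK kinase cascade to transcription factors, among them AP-1 and ETS proteins, which recruit acetyltransferases. Arid1a is a DNA-binding subunit of the BAF form of SWI/SNF, an ATP-driven remodeller that opens nucleosomes at enhancers and is often lost in pancreatic tumours. In acinar cells, EGF receptor signalling is known for driving the change towards a duct-like state. The comparison thus sets an extracellular signal beside the loss of a chromatin machine. No genome or gene annotation of build mm9, in which the files give positions, was used here, so regions are named by position, no sequence is printed, and the acinar identity of the cells was not checked against marker loci.

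EGF libraries held fewer and narrower peaks than knockdown libraries in each measure of list size taken. There were 22361 and 23080 peaks with EGF and 26844 and 27558 with knockdown, and the groups did not overlap. Peaks covered 33.9 and 35.5 Mb with EGF against 46.3 and 48.7 Mb with knockdown, a ratio of 1.37 between the knockdown and EGF means. Median peak width was 1195 and 1218 bp with EGF and 1302 and 1312 bp with knockdown. The widest class, peaks of 10 kb or more, numbered 69 and 70 with EGF and 161 and 208 with knockdown. In each case the exact two-sided permutation test gave p = 0.33, the smallest that 2 libraries against 2 allow. The control libraries differed from each other as much, with 22167 peaks over 34.3 Mb in the first and 28281 over 47.2 Mb in the second; their peaks of 10 kb or more, 72 and 150, lay between the treatments. Read depth is unknown. The highest −log10 q of a list, which tends to grow with depth, was 36.2 and 39.4 with EGF, 63.0 and 69.8 with knockdown, and 34.2 and 62.4 in the controls; its part in the list sizes was not tested. Median fold enrichment, the peak caller's own ratio over background, was 4.62 and 4.78 with EGF and 4.74 and 4.69 with knockdown, so the lists did not part on it.

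**Figure D1:**
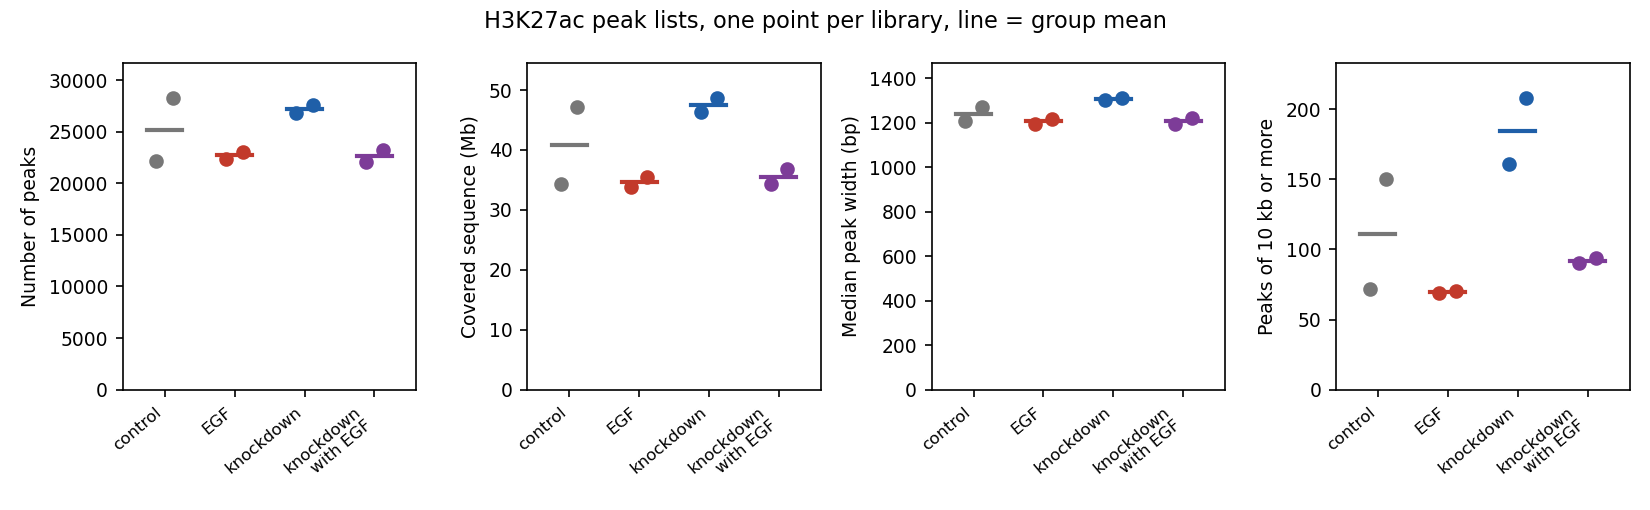
Number of peaks, covered sequence in Mb, median peak width in bp and number of peaks of 10 kb or more for each of the 8 libraries, by group, with a line at the group mean. The EGF points (22361 and 23080 peaks) lie below the knockdown points (26844 and 27558), while the control points lie near one treatment each.

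Most regions were common to both treatments, and those found with one treatment alone were far more often found with knockdown. Of the 31535 regions, 18516 (58.7%) were found in each of the 4 libraries, which is 81.2% of the merged sequence. A region was called particular to a treatment where both of its libraries had a peak and neither library of the other did. By this rule 703 regions (2.23% of all) were particular to EGF and 3331 (10.6%) to knockdown. A further 644 regions had a peak in 1 EGF and 1 knockdown library, 1142 in a single EGF library alone and 4668 in a single knockdown library alone. The excess on the knockdown side was smaller with lists of equal length: with each list cut to its 22361 highest-scoring peaks, 1360 regions were particular to EGF and 1537 to knockdown. At or above the pooled median score of 40, 261 regions were particular to EGF and 2415 to knockdown. When 50% of a region had to be covered, the numbers were 908 and 5047. Leaving out a library can only raise the counts of 703 and 3331. Dropping EGF library 1 gave 1427 and 4066 and dropping EGF library 2 gave 1184 and 4463. Dropping knockdown library 1 gave 973 and 6156 and dropping knockdown library 2 gave 1132 and 5602.

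Presence in the controls divided these regions further. Of the regions particular to EGF, 410 (58.3%) had no peak in either control library, and 81 (11.5%) had one in both. Of these 81, 44 had none in the combined libraries, which also carry Arid1a siRNA. These 44 were 6.26% of EGF regions, against 13.2% for the regions with a peak in 1 EGF and 1 knockdown library. Of those particular to knockdown, 779 (23.4%) had no peak in either control and 1056 (31.7%) had one in both. Among the 644 regions split evenly between the treatments, 33.2% had no control peak and 21.4% had both. The remaining regions had a peak in 1 control only, 212 of those particular to EGF and 1496 of those particular to knockdown. The 2 controls differed here: the first held a peak in 90 of the EGF regions and 1147 of the knockdown regions, and the second, with the longer list, in 284 and 2461. Knockdown regions held by both controls were wider (median 1116.5 bp) than those held by neither (811 bp), and their median fold rank within the knockdown lists was higher, at percentile 22.9 against 10.9, taking for each region the lower of its ranks in the 2 libraries.

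Libraries given both treatments held a larger share of the EGF regions. Of the EGF regions, 224 (31.9%) had a peak in both combined libraries and 283 (40.3%) in neither. Of the knockdown regions, 529 (15.9%) had a peak in both and 2039 (61.2%) in neither. Among regions split evenly between the treatments, 17.2% had a peak in both and 52.0% in neither, and over all merged regions 62.6% and 27.4%. The knockdown share in both was thus near that of the split regions, while the share in neither was higher. The differences between shares were not tested. Taken with the controls, 136 EGF regions (19.3%) had peaks in both combined libraries and no control. This is the pattern of a mark that goes with EGF under either siRNA. The same reference pattern was found in 7.14% of split regions and 1.96% of all merged regions. Another 150 (21.3%) had peaks in EGF libraries alone, against 14.1% of split regions without a control or combined peak. On the other side, 85 knockdown regions (2.55%) had peaks in both combined libraries and no control. That is the pattern of a mark that goes with Arid1a siRNA with or without EGF, but the share was below the 7.14% of split regions. For 548 knockdown regions (16.5%), both controls and neither combined library had a peak, against 13.2% of split regions. This is the pattern of a mark missing whenever EGF was given. With lists of equal length over all 8 libraries, the share of EGF regions held by both combined libraries was 41.3% and the share of knockdown regions held by neither was 46.3%.

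**Figure D2:**
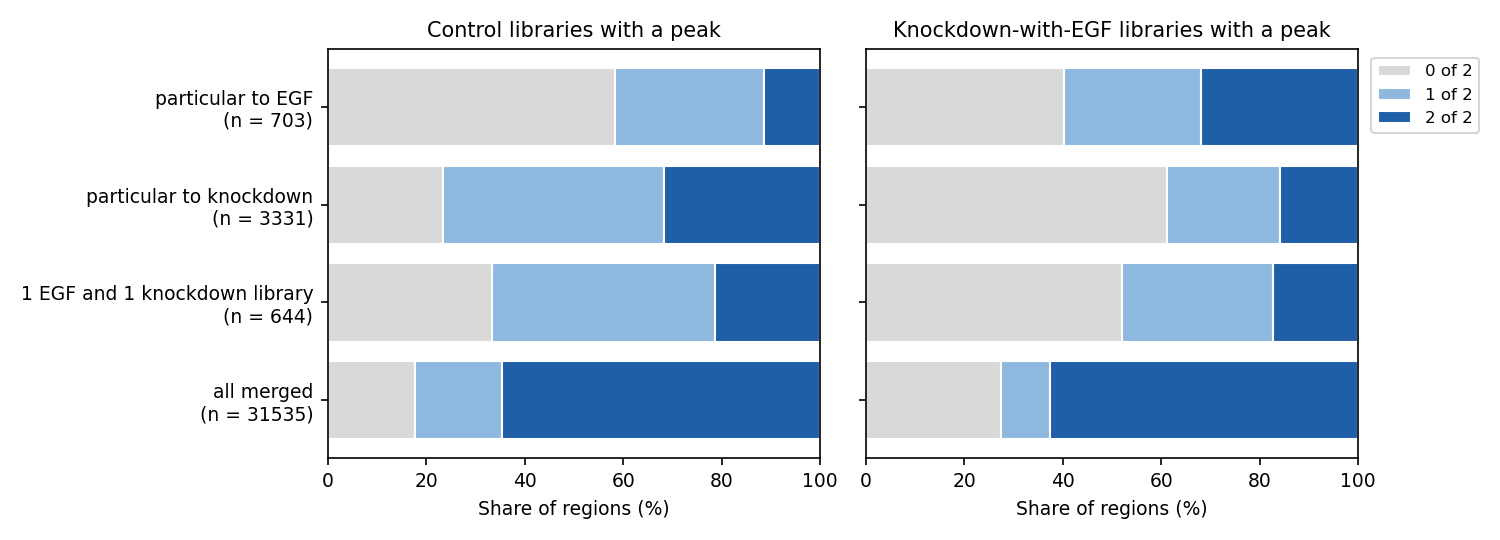
Share of regions, in percent, with a peak in 0, 1 or 2 control libraries (left) and in 0, 1 or 2 libraries of knockdown with EGF (right), for regions particular to EGF, particular to knockdown, split between the treatments, and all merged regions. The part without any control peak is 58.3% for EGF regions and 23.4% for knockdown regions.

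The regions particular to EGF with the highest fold ranks, 378 to 4240 bp wide, all had a peak when EGF was given with Arid1a siRNA as well. They are called E1 to E10, in order of the lower of their 2 within-list percentiles, and those particular to knockdown K1 to K10. E2, at chr11:101645191-101646591, was covered over 1401 and 1371 bp in the EGF libraries and had no peak in either knockdown or either control library. Its fold enrichment was 7.43 and 6.91, at percentiles 92.8 and 83.8 of the EGF lists. With both treatments it was covered over 1391 and 1352 bp, so the combined libraries were close to EGF alone. On the scale of log2(covered bp + 200), limma gave a difference between EGF and knockdown of 2.99 ± 0.25 (SE, adjusted p = 0.00465). Where no peak was called the covered length is 0 bp, a statement on the caller and not on acetylation as such, and a difference from 0 depends on the 200 bp added.

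E1, at chr10:79951426-79953359, led the list, at percentiles 92.0 and 93.0. It was covered over 1820 and 1845 bp with EGF, 1534 and 1934 bp with both treatments, 0 bp in the knockdown libraries, and 0 and 611 bp in the controls (log2 difference 3.35 ± 0.63 SE, limma adjusted p = 0.0207). E4, at chr13:58043266-58047505, was also the widest region particular to EGF, with 4204 and 4240 bp covered with EGF and 3967 bp in each combined library. It had no peak with knockdown and 0 and 1118 bp in the controls (4.47 ± 0.80 SE, limma adjusted p = 0.0177). Fold ranks were lower with both treatments than with EGF alone in all 10 regions, at percentiles 72.6 and 72.2 for E1, 71.7 and 77.6 for E2 and 55.0 and 54.4 for E4. The regions were picked for high rank with EGF, which favours lower ranks in libraries not used for the choice. E6, at chr5:64829220-64830982, was covered over 1466 and 1763 bp with EGF and 1331 and 1567 bp with both, while its percentiles were 66.7 and 68.5 with EGF and 32.0 and 27.7 with both. All 10 leading regions had a peak in both combined libraries, 6 had none in either control and 0 had one in both controls. By limma 8 of the 10 passed, with log2 differences over the 10 from 1.42 to 4.47. As these regions were picked on the same libraries, passing is no separate support. E2 passed in all 16 alternative fits (limma adjusted p 0.00257 to 0.0151). E1 and E4 passed in 12 of 16, and lost the call without any 1 of the EGF or knockdown libraries, with limma adjusted p of 0.0943 to 0.123 for E1 and 0.0885 to 0.118 for E4.

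Leading regions particular to knockdown were of another make: 9 of the 10 had a peak in both controls and 0 had none, so in most of them the EGF libraries lacked a peak that the controls held. K4, at chr4:153534277-153535439, was covered over 1084 and 1157 bp with knockdown, 944 and 1016 bp in the controls and 757 and 894 bp with both treatments, and had no peak with EGF alone. Its log2 difference between EGF and knockdown was -2.72 ± 0.23 (SE, limma adjusted p = 0.00465), made up of -2.56 for EGF against control and 0.16 for knockdown against control. Knockdown nevertheless stood above the controls in most of the list: both knockdown libraries exceeded both controls in 8 of 10 regions in covered length and in 8 of 10 in fold enrichment. The regions were picked for high fold rank in the knockdown libraries, which favours this order, so the counts are no separate support. K1, at chr11:69826876-69829229, led the list, at percentiles 83.1 and 79.8. It was covered over 880 and 2354 bp with knockdown, a wide spread, and 661 and 725 bp in the controls (-3.05 ± 0.44 SE, limma adjusted p = 0.00993). K7, at chr6:121195122-121197193, had 1173 and 1790 bp with knockdown, 1214 and 711 bp in the controls and 420 and 674 bp with both (-3.05 ± 0.36 SE, limma adjusted p = 0.006). K6, at chr19:46764171-46764899, was absent from both groups given EGF. It had 392 and 729 bp with knockdown and 217 and 231 bp in the controls (-1.89 ± 0.29 SE, limma adjusted p = 0.0118). K3, at chr13:21622528-21623092, had 457 and 455 bp with knockdown, 338 and 453 bp in the controls and 362 and 382 bp with both. Of the 10 regions 8 passed, 7 had a peak in both combined libraries and 2 in neither. As the regions were picked on the same libraries, passing is no separate support. K1 lost its call without EGF library 1 (limma adjusted p = 0.0554), and K3 and K6 lost theirs with quantile normalization (limma adjusted p = 0.856 and 0.434), while K4 and K7 passed in all 16 fits.

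**Figure D3:**
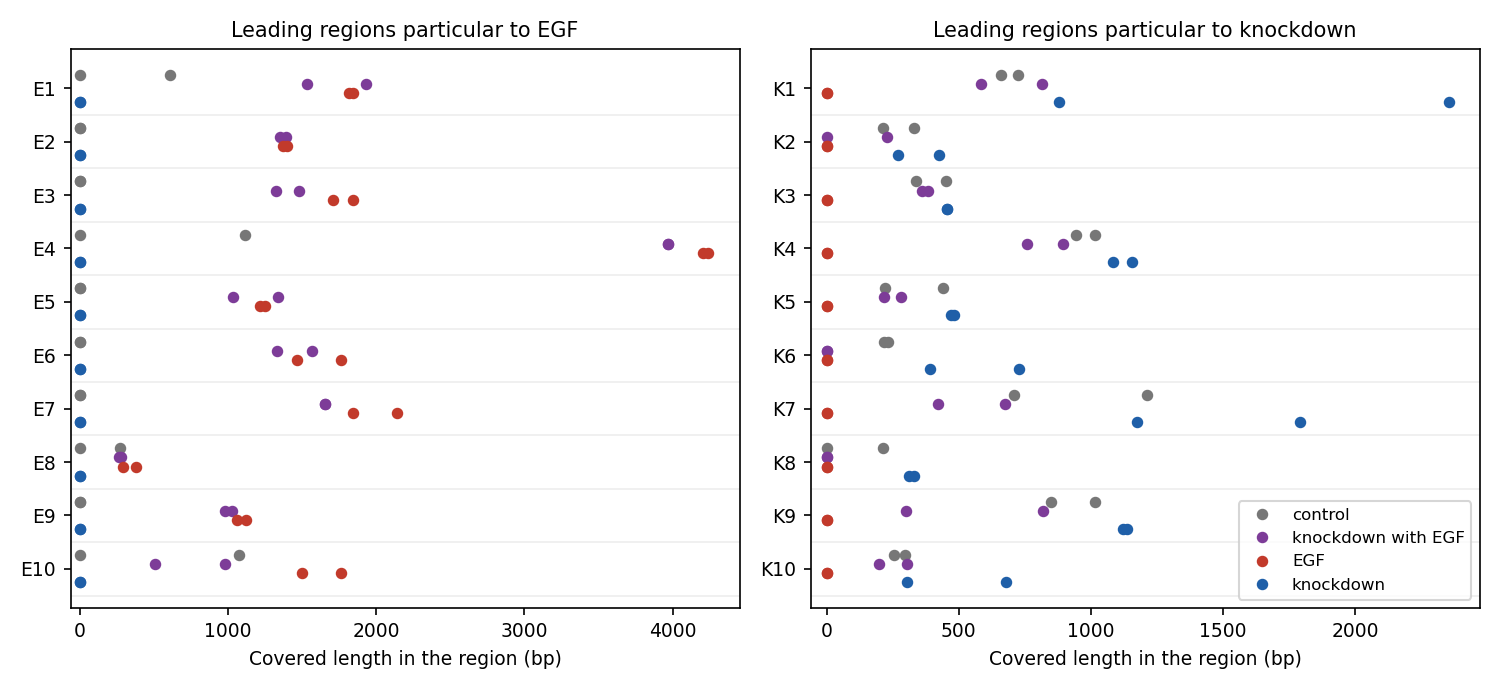
Covered length in bp of the 10 leading regions particular to EGF (left, E1 to E10) and to knockdown (right, K1 to K10), 1 point per library, coloured by group. On the left, combined points lie close to EGF points for E2 (1391 and 1352 bp against 1401 and 1371 bp) but below them for E10 (510 and 984 bp against 1498 and 1766 bp); on the right, control points lie below both knockdown points in 8 of 10 regions, closely for K4 (944 and 1016 bp against 1084 and 1157 bp).

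The 85 regions found with Arid1a siRNA in the presence and absence of EGF, but in no control or EGF library, had a median width of 891 bp. They made up 2.55% of knockdown regions, while 7.14% of split regions had the same presence in control and combined libraries. The 5 of them with the highest ranks were 228 to 448 bp wide. The first, at chr17:34105649-34106023, was covered over 298 and 375 bp with knockdown and 243 and 256 bp with both treatments, and had no peak in the other 4 libraries. Its fold enrichment was 5.41 and 6.55 with knockdown and 4.66 and 5.78 with both. Limma gave a log2 difference of -1.42 ± 0.22 between EGF and knockdown (SE, adjusted p = 0.0123). A second, at chr18:24145493-24145861, had 359 and 353 bp with knockdown and 207 and 200 bp with both (-1.48 ± 0.21 SE, limma adjusted p = 0.00969). All 5 passed, with differences from -1.48 to -1.05. They were picked for having no peak in the EGF and control libraries, so passing is no separate support. With quantile normalization none of the 5 passed: the limma adjusted p was 0.971 for the first and 0.943 for the second, each of which passed in the other 15 fits, and 3 of the 5 changed sign. The 5 highest-ranked EGF counterparts had peaks in both EGF and both combined libraries only and were 1338 to 2138 bp wide. They differed by 2.84 to 3.45, each at a limma adjusted p of 0.00465. These were picked by the same kind of rule, so their passing is no separate support either.

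Particular regions of either treatment were narrow and low in rank beside the common ones. Median width was 875 bp for EGF regions and 947 bp for knockdown regions, against 1974 bp for regions with a peak in all 4 libraries and 729.5 bp for those split between the treatments. Only 4 EGF regions (0.569%) and 47 knockdown regions (1.41%) reached 3000 bp, against 24.4% of common regions. In fold rank, 72.7% of EGF regions and 70.0% of knockdown regions lay below percentile 25 of at least 1 of their lists, and 30 and 112 regions lay above percentile 50 in both. These widths and ranks follow in part from the choice, since a peak near the caller's limit is easily missed in another library.

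The widest regions particular to knockdown did not rank high: the 5 widest lay below percentile 50 in both knockdown lists. Like all particular regions, they were picked by presence in these libraries, so limma calls for such regions are no separate support. The widest, at chr7:140199123-140206332, was covered over 6030 and 6124 bp with knockdown, 2679 and 5636 bp in the controls and 979 and 453 bp with both treatments. EGF libraries had no peak in it. Its fold enrichment of 4.12 and 4.29 lay at percentiles 36.7 and 42.5 of the knockdown lists, and limma gave -4.97 ± 0.40 (SE, adjusted p = 0.00465). Another, at chr14:80518986-80524421, had 5436 and 4505 bp with knockdown, 1482 and 4137 bp in the controls and 1248 and 1407 bp with both (-4.69 ± 0.42 SE, limma adjusted p = 0.00465). With EGF, a 3297 bp region at chr12:33902764-33906060 had the reverse pattern, present in the controls and missing with Arid1a siRNA. It had 3297 and 1501 bp with EGF, 481 and 3297 bp in the controls and no peak in the 4 libraries given Arid1a siRNA (3.61 ± 0.79 SE, limma adjusted p = 0.0307). That call held in 9 of 16 alternative fits, with limma adjusted p between 0.00539 and 0.158, and was lost without any 1 library of EGF (0.154 and 0.0806), knockdown (0.151 and 0.158) or the combined group (0.0589 and 0.0585). Both wide knockdown regions above passed in all 16.

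By position, EGF regions lay farther from common regions than knockdown regions did. The median distance to the nearest region with a peak in all 4 libraries was 24.9 kb for EGF and 13.7 kb for knockdown regions, and 16.9% and 26.2% lay within 5000 bp of one. For split regions these values were 17.2 kb and 21.0%, and from one common region to the nearest other 15.5 kb and 23.6%. Within 1000 bp of a peak of the other treatment lay 37 EGF (5.26%) and 146 knockdown regions (4.38%). No such share was taken over other regions, and the choice removes any region that touches a peak of the other treatment. The share of regions particular to EGF was 3.24% on chromosome 6 and 3.06% on chromosome 15, 1.44% on chromosome 9 and 0.470% on the X chromosome, where 3 of 638 regions were particular to EGF and 56 to knockdown. Knockdown shares over the autosomes ran from 8.75% on chromosome 3 to 12.5% on chromosome 7. Chains of 3 or more particular regions with gaps of at most 20 kb numbered 4 for EGF and 54 for knockdown, and held 1.85% and 5.28% of the regions particular to each, the knockdown set being the larger. The EGF chain with the most members held 4 regions in 24.6 kb at chr5:92795452-92820053, with 1898 and 3163 bp covered with EGF, 0 and 602 bp in the controls and 778 and 1301 bp with both treatments. Of the knockdown chains, one at chr19:5786682-5837821 held 5 particular regions beside 3 common ones over 51.1 kb. Its particular regions were covered over 4900 and 4948 bp with knockdown, 1354 and 1068 bp with both, and 0 bp in each control and EGF library. These chains were chosen after their values were seen.

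In regions common to both treatments, covered length was shorter with EGF. Over the 18516 common regions both EGF libraries were below both knockdown libraries in 10645 (57.5%) and above both in 1664 (8.99%). The median log2 ratio of EGF to knockdown was -0.28, a ratio of 0.821. Median covered length was 1347 and 1406 bp with EGF, 1661.5 and 1709 bp with knockdown, and 1328 and 1591 bp in the controls, so the 2 controls again lay far apart. The ratio moved little with the width of the region, from 0.837 for regions of 1000 to 2000 bp to 0.755 for those of 5000 to 10000 bp. EGF peaks were also more often broken up than knockdown peaks: 292 common regions held 2 or more peaks in each EGF library and 1 in each knockdown library, against 30 the other way. Common regions with 2 or more peaks numbered 876 and 822 with EGF, 517 and 368 with knockdown and 934 and 699 in the controls. EGF thus lay within the control range, and knockdown lay below it. At 10 kb, 68 regions reached this cover in both knockdown and neither EGF library, 1 in both EGF and neither knockdown library, and 98 in all 4. Of those 68, controls reached it in both libraries for 16 and in neither for 18, and their median cover was 11496.5 and 12269.5 bp with knockdown and 7891 and 7853.5 bp with EGF.

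Limma was run on the 25725 regions called in 2 or more of the 4 libraries. It called 625 regions longer with EGF (2.43%) and 4123 longer with knockdown (16%). Of these calls, 463 and 1928 fell in regions particular to EGF and to knockdown, which were defined by presence in the same libraries. Such regions enter the fit only through the treatment that holds them, so their calls are no separate support. The fit used all 8 libraries, so that the spread came from 4 duplicate pairs. The median log2 difference over all regions tested was -0.33, and calls are to be read against that shift. Quantile normalization, which moved the median to 0.07, called 1727 longer with EGF and 1511 longer with knockdown, and lists of equal length gave 1050 and 3074. Dropping EGF library 1 or 2 left 361 and 1669, or 370 and 2278, calls, and dropping knockdown library 1 or 2 left 348 and 1997, or 380 and 1786. Among regions common to all 4 libraries, 129 were longer with EGF and 2018 with knockdown. Regions longer with EGF were covered over a median of 910.5 bp with EGF and 0 bp with knockdown. Their medians were 0 bp in the controls and 315 bp with both treatments. Most were particular to EGF, so the 0 bp with knockdown follows from the choice. Regions longer with knockdown had medians of 1549 bp with knockdown, 171.5 bp with EGF, 1077 bp in the controls and 678.5 bp with both. The control mean lay nearer to knockdown than to EGF in 81.4% of the former and 56.5% of the latter, against 50.5% of all regions tested.

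The common region with the largest difference towards EGF, at chr13:51586644-51594245, was longest in both EGF libraries. It was covered over 5607 and 7566 bp with EGF and 974 and 534 bp with knockdown, 8.74-fold more in the mean, with 697 and 1222 bp in the controls and 1733 and 3684 bp with both treatments (log2 difference 2.85 ± 0.43 SE, limma adjusted p = 0.0108). At chr3:10214790-10216554 it was knockdown that stood apart. This region had 1544 and 1765 bp with EGF, 1308 and 1372 bp in the controls, 1114 and 1315 bp with both and only 289 and 208 bp with knockdown (2.05 ± 0.18 SE, limma adjusted p = 0.00465). A region at chr3:37728465-37730977 had 2429 and 2406 bp with EGF, 476 and 455 bp with knockdown and 1326 and 593 bp in the controls (1.98 ± 0.30 SE, limma adjusted p = 0.0118), so the controls lay between the treatments. The first of these calls was lost without EGF library 1 or 2 or knockdown library 2 (limma adjusted p = 0.0542, 0.064 and 0.085) and the last without any 1 of the 4 libraries (0.0612 to 0.0845), while the second passed in all 16 fits.

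Towards knockdown, the largest difference was at chr12:103933201-103939930. This region had 6730 and 4567 bp with knockdown and 308 and 494 bp with EGF, a 14.1-fold difference of means, with 3186 and 5072 bp in the controls and 1332 and 1178 bp with both (-3.28 ± 0.29 SE, limma adjusted p = 0.00465). A second, at chr2:26336048-26340336, had 3712 and 4077 bp with knockdown, 315 and 253 bp with EGF, 1944 and 2784 bp in the controls and 1771 and 2221 bp with both (-3.08 ± 0.19 SE, limma adjusted p = 0.00465). Its order ran from knockdown through the controls and the combined libraries, whose ranges overlapped, down to EGF. Both passed in all 16 fits. All 5 regions with the largest differences of this sign had a peak in both controls and both combined libraries. Most common regions do: 94.3% had a peak in both controls and 94.2% in both combined libraries.

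Fold ranks of the common regions do not share the uneven list sizes, since all 4 libraries were ranked over the same 18516 regions. Both EGF libraries ranked above both knockdown libraries by at least 10 percentile points in 3123 regions (16.9%), and the reverse held in 3220 (17.4%). Ranks over 1 fixed set have the same mean in every library, so a balance of this kind is built in. Ranking by the deposited score gave 2272 and 2379. Gaps of at least 20 points were found in 1407 and 1475 regions. In regions ranked higher with EGF, the median percentile was 66.5 and 67.1 with EGF and 34.3 in each knockdown library. The controls, not used in the choice, stood at 39.1 and 39.4 and the combined libraries at 54.6 and 55.2. Control and combined ranks were taken over the common regions each library held: 17494 and 18356 in the controls, 17685 and 17934 with both treatments. They are thus not strictly on the scale of the 18516 regions. In those ranked higher with knockdown, the medians were 66.5 and 67.0 with knockdown, 33.6 and 34.6 with EGF, 58.2 and 61.1 in the controls and 44.3 and 44.6 with both treatments. On either side the controls thus lay on the knockdown side of the midpoint, and the combined libraries lay between.

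Both controls stood on the knockdown side of both EGF libraries more often than on the EGF side of both knockdown libraries. This held in both sets of regions. Of the 2906 regions ranked higher with EGF that both controls held, both controls ranked below both EGF libraries in 86.3% and above both knockdown libraries in 34.7%. Over all common regions held by both controls these shares were 32.8% and 20.4%. Of the 3179 regions ranked higher with knockdown that both controls held, both controls ranked above both EGF libraries in 82.2% and below both knockdown libraries in 47.3%, against 30.6% and 28.0% over all. These shares describe regions chosen for their gap. They also set control ranks over the regions each control held beside treatment ranks over all common regions. Of the 129 common regions called longer with EGF, 93 (72.1%) ranked higher with EGF and 0 ranked higher with knockdown. Of the 2018 called longer with knockdown, 561 (27.8%) ranked higher with knockdown and 172 (8.52%) ranked higher with EGF. Over all common regions, 16.9% ranked higher with EGF and 17.4% with knockdown. Length calls carry a median log2 difference of -0.25 in common regions, while ranks are balanced by construction. The 2 directions are therefore not compared on equal terms.

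**Figure D4:**
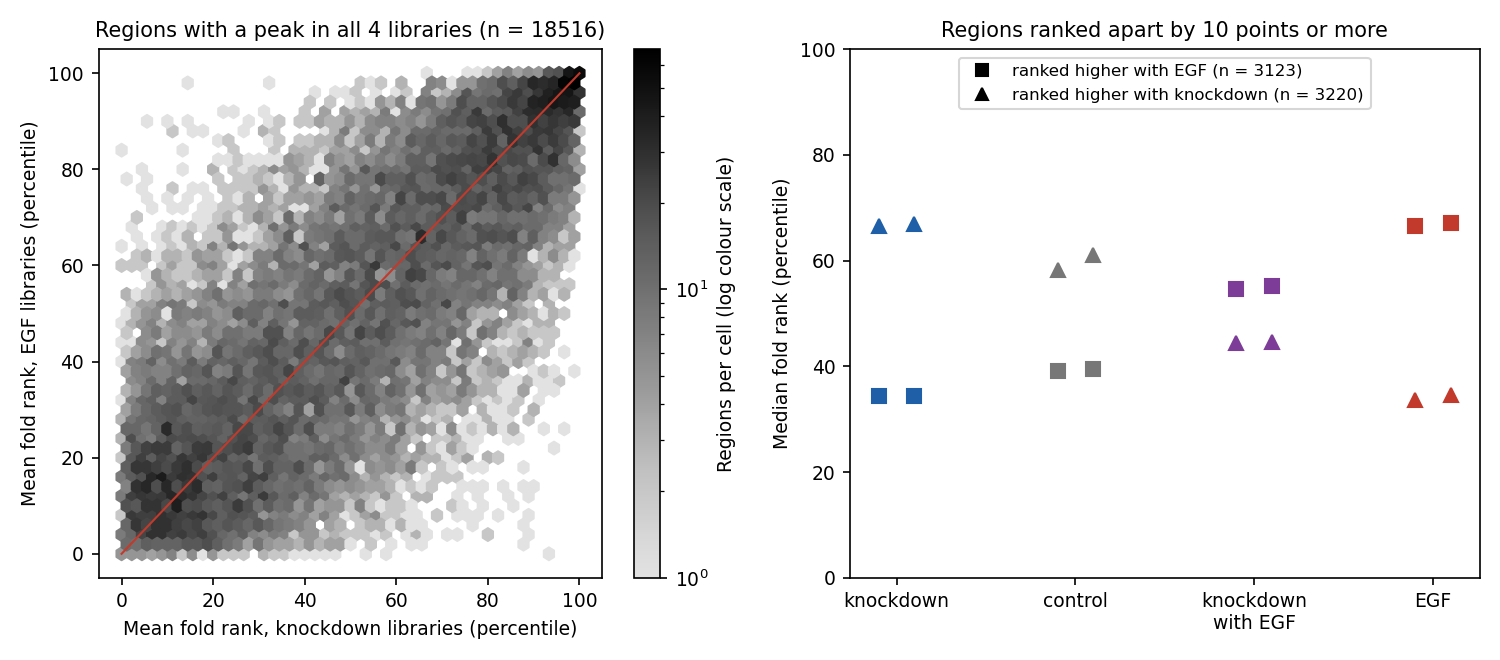
Left, mean fold rank with EGF against mean fold rank with knockdown, in percentiles of the 18516 common regions, shaded by the number of regions on a log scale with a line of equal rank. Right, median rank in each library of the 3123 regions ranked higher with EGF (squares) and the 3220 ranked higher with knockdown (triangles). Controls lie nearer to knockdown and combined libraries between, for example at 39.1 and 54.6 for the squares. Control and combined ranks are over the common regions each library held.

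Single regions lay at opposite ends of the ranking in the 2 treatments. A peak at chr11:5661320-5663057 had a fold enrichment of 10.5 and 11.5 with knockdown, 7.97 and 9.26 in the controls, 4.34 and 4.04 with both treatments and 3.23 and 3.19 with EGF. Its rank was 92.6 and 95.5 with knockdown and 0.664 and 0.362 with EGF, the widest gap found, at 91.9 points. Covered length was 1738 and 1264 bp with knockdown and 1103 and 512 bp with EGF (log2 difference -0.81 ± 0.31 SE, limma adjusted p = 0.114). Enrichment was thus higher in each of the 4 libraries without EGF than in each of the 4 with it. The region at chr17:33915329-33919069 differed in both measures, with ranks of 81.7 and 78.6 with knockdown, 70.4 and 46.8 in the controls, 31.8 and 30.9 with both and 4.66 and 1.69 with EGF. It was covered over 3575 and 3741 bp with knockdown, 1623 and 1918 bp in the controls and 637 and 639 bp with EGF (-2.20 ± 0.13 SE, limma adjusted p = 0.00465).

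On the EGF side, a peak of steady length at chr2:56975788-56976641 ranked 98.5 and 98.9 with EGF, 7.24 and 22.5 with knockdown, 36.3 and 38.8 in the controls and 73.1 and 72.3 with both. Its fold enrichment was 9.26 and 10.6 with EGF and 3.63 and 4.38 with knockdown, while it was covered over 716 and 854 bp and 597 and 664 bp (log2 difference 0.24 ± 0.21 SE, limma adjusted p = 0.43). The region with the widest gap on this side, at chr11:71629840-71634432, ranked 89.7 and 89.3 with EGF, 8.71 and 10.0 with knockdown, 28.6 and 16.7 in the controls and 69.6 and 59.7 with both. It was covered over 3751 and 4286 bp with EGF and 991 and 1525 bp with knockdown (1.55 ± 0.31 SE, limma adjusted p = 0.0234), a call that was lost without EGF library 1 or 2 (0.101 and 0.114) or knockdown library 1 or 2 (0.138 and 0.0787) and passed in the other 12 of 16 fits. At chr15:32045400-32047902 the ranks were 87.9 and 90.2 with EGF, 14.8 and 6.79 with knockdown, and 1.51 and 3.80 in the controls. The control ranks were the lowest there, but they were taken over fewer regions than the treatment ranks, so their order against knockdown is not firm. The combined libraries reached 68.7 and 77.9. In all 10 regions chosen for their gap, both combined libraries held a peak, as they did in 94.2% of all common regions.

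At the top of the ranking the treatments shared fewer regions than their duplicates did. Of the 1000 highest-ranked common regions in each library, the EGF libraries shared 752 with each other and the knockdown libraries 781, while EGF and knockdown libraries shared 415 to 426. In the top 1000 of both EGF and neither knockdown library were 345 regions, of which 258 were in the top 1000 of neither control and 215 in that of both combined libraries. In the top 1000 of both knockdown and neither EGF library were 372, of which 210 were in that of both controls and 281 in that of neither combined library. All 4 libraries shared 315, and 255 of these were also at the top in both controls. Over the 16676 regions with a peak in all 8 libraries, Spearman's rho of fold enrichment was 0.919 between the EGF libraries and 0.947 between the knockdown libraries. Between EGF and knockdown it was 0.704 to 0.718, between knockdown and control 0.871 to 0.902, and between EGF and control 0.704 to 0.736. The combined libraries reached 0.879 to 0.884 with EGF and 0.801 to 0.806 with knockdown. These values describe regions that share a genome sequence, a peak caller and its background, and are not a test.

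**Figure D5:**
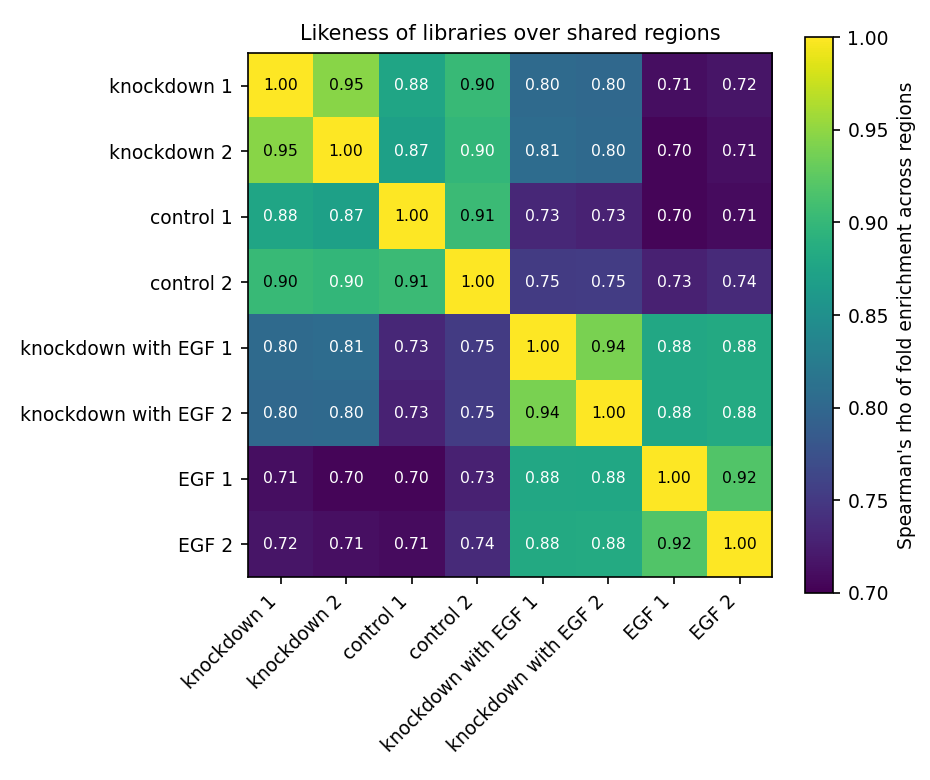
Spearman's rho of fold enrichment between each pair of the 8 libraries, for the 16676 regions called in every library, with colour from 0.7 to 1. EGF against knockdown gives 0.70 to 0.72, while knockdown against control gives 0.87 to 0.90.

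Base-pair overlap, the sequence shared by a pair of lists over the sequence covered by either, was lower between EGF and knockdown than between any other pair of groups. The index averaged 0.606 between EGF and knockdown libraries, against 0.764 within the EGF pair, 0.738 within the knockdown pair and only 0.658 within the control pair, which is below the mean between knockdown and control. It averaged 0.644 between EGF and control and 0.677 between knockdown and control. With the first control alone it was 0.664 and 0.669 for the EGF libraries and 0.646 and 0.636 for knockdown, and with the second alone 0.613 and 0.631 for EGF and 0.711 and 0.714 for knockdown. Which treatment shared more covered sequence with control thus turned on the control library, while in fold ranks knockdown lay nearer with either control. In each of these measures, fewer cells carrying the mark and less of the mark in each cell cannot be told apart.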

How the data were processed

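Each of the 8 libraries of H3K27ac ChIP-seq, 2 per group, was a headerless peak list of 9 columns. The submitters' processing notes name build mm9, MACS2 2.1.1.20160309.0, deepTools 3.0.2, Bowtie2 2.3.4.2 and SAMtools, with no role or order. Caller settings and input are not stated in these sources. The authors' deposited score is 10 times the −log10 q to rounding, and its fold enrichment, also deposited, is a ratio to background. The deposited −log10 p and −log10 q come from the caller. These values rank peaks within a list only. Positions are printed 1-based.

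Peaks of the 4 lists overlapping by at least 1 bp were merged, and presence, covered length and highest fold were taken per library. Covered length was tested with limma 3.58.1 (trended empirical Bayes, R 4.3.3) on log2 of covered bp plus 200, fitting the 4 group means without a block, Benjamini-Hochberg adjustment over 25725 regions and a threshold of 0.05. Python 3.11.15 with SciPy 1.17.1, NumPy 2.4.6, pandas 2.3.3 and matplotlib 3.10.9 did the rest. Both steps were tested on simulated data. Named regions are the 10 per treatment with the highest lower fold percentile, and 5 per treatment by width, by log2 difference among common regions past the threshold, by rank gap, and by presence with the combined treatment and without control; some of each are printed. Distances, chromosome shares, chains and the top 1000 were added later. Members and rules were chosen with earlier results of these data known. The 6 gene lists planned for an mm9 annotation were not analysed here. Depth is unknown, so no counting interval is given.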

Additional observations from a re-analysis of the deposited data

How the results depend on the processing

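Read depth is unknown, and longer lists hold more regions. Particular regions numbered 261 for EGF and 2415 for knockdown at or above the pooled median score of 40. With lists of equal length they numbered 1360 and 1537. When 50% of a region had to be covered they numbered 908 and 5047, and as bins of 1000 bp 1939 and 11361. Leaving out 1 library gave 973 to 1427 for EGF and 4066 to 6156 for knockdown. At the pooled median score EGF differed from knockdown by -3284 peaks and -147.5 bp of median width, against -4480.5 and -100.5. Rank gaps of 20 points left 1407 regions higher with EGF and 1475 higher with knockdown. With equal lists over all 8 libraries, 41.3% of EGF regions were in both combined libraries, and 29.6%, 39.5% and 46.3% of knockdown regions were in neither control, both controls and neither combined library; at 50% cover the first pair was 26.5% and 29.4%. Limma called 1727 regions longer with EGF and 1511 longer with knockdown after quantile normalization, and 1050 longer with EGF with equal lists. Leaving out 1 library gave 348 to 819 and 1669 to 5722. Quantile normalization reversed K8 (0.0018) and 3 short regions found with Arid1a siRNA only (0.21, 0.048 and 0.0086). The causes were not tested, beyond fewer peaks or libraries where these were removed.

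Replicate numbers showed no pairing in covered length: same-numbered deviations of EGF and knockdown correlated at -0.0071 over 25725 regions. Whether same-numbered libraries were made together is not settled by this. A replicate block gave 603 regions longer with EGF and 3950 longer with knockdown.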
